A study of Mus musculus with 6 samples.

Results

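The genes described here are 9 regulators of DNA methylation and of Polycomb repression, namely Dnmt1, Dnmt3a, Dnmt3b, Uhrf1, Ezh1, Ezh2, Suz12, Eed and Bmi1, chosen by name from the 28902 genes on the array. All 9 were on the array, with 17 probes between them. Illumina bead arrays were used to measure total RNA from CD4+ T cells. The strain is given as RAG1- BW TRP-1 TCR, mice of 6 weeks that lack RAG1 and whose transgenic T cell receptor recognises TRP-1, a melanocyte protein. Cells labelled Th17 were activated with TRP-1 peptide and taken 2, 4, 7, 12 and 18 days later, and CD4+ cells were taken before activation (day 0). All of the groups share the RAG1 deficiency and the transgenic receptor, which fixes 1 antigen specificity. The labels name no sort, polarising cytokine, pooling or number of mice. Each time point had 1 library, so no difference between days has a replicate check, a standard error or a p-value.

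DNA methylation is kept through cell division by DNMT1, which copies the mark to the new strand, and by UHRF1, which finds half-methylated sites and brings DNMT1 to them. DNMT3A and DNMT3B add the mark where it was absent. Polycomb repressive complex 2 (PRC2), in which EZH2 or its paralog EZH1 is the enzyme and SUZ12 and EED are needed for its activity, methylates a lysine of histone H3, and Polycomb repressive complex 1 (PRC1), with BMI1 as a subunit in some of its forms, attaches ubiquitin to histone H2A. In T helper cells EZH2 is known for restraining cytokine and lineage genes, and EZH2 and BMI1 for holding the Cdkn2a cell cycle inhibitor locus silent in dividing cells.

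Promoter windows of RefSeq (GRCm38.p6), from 250 bases before to 50 after an annotated start, were available for all 9 genes and held 14 windows. They were searched on both strands for TTTCGCGC and TTTGGCGC, forms of the binding motif of the cell cycle factors E2F, for the CCAAT box and for the GC box GGGCGG. An E2F-type match lay in a window of 3 of the 9 genes (33.3%), Uhrf1, Ezh2 and Dnmt1. Of the 27025 genes with a window 251 held one (0.929%), of 17 S phase genes with a window 6 (35.3%), and of 15 mitosis genes 1 (6.67%). Both E2F-type motifs contain the base pair step CG. The matched windows of Uhrf1, Ezh2 and Dnmt1 held 33, 31 and 33 such steps, against a median of 7 over all windows. The share of E2F-type matches among windows equally rich in CG was not computed, so 0.929% is not a like background. Uhrf1, Ezh2 and Dnmt1 had their lowest signal at day 18, but so did Suz12 and Eed, which held no E2F-type match. The stretches with these matches are shown so that the motifs can be read in place, beside a stretch of Dnmt3b, which had another time course and no E2F-type match. They are printed in the direction of the gene, and capitals mark matches to the 4 motifs searched.
Uhrf1, chr17:56304063-56304312 (+ strand): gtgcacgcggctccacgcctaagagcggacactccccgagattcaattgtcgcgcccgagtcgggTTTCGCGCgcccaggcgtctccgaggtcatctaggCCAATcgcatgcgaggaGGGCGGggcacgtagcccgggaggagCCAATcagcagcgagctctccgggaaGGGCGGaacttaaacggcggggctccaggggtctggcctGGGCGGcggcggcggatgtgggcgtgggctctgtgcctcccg
Ezh2, chr6:47595016-47595045 (- strand): ggcgATTGGgttgctgcgTTTGGCGCtcgg
Dnmt1, chr9:20952822-20952851 (- strand): tttccgcgcGCGCGAAAaagccggggtctc
Dnmt3b, chr2:153649369-153649410 (+ strand): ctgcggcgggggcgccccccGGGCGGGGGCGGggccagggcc
In the Uhrf1 window TTTCGCGC began at base -185 from the start, followed by 2 CCAAT boxes and 3 GC boxes. Uhrf1 has a further annotated start with its own window, which held no E2F-type match. In the Ezh2 window TTTGGCGC began at base 4 after the start, and 3 CCAAT matches lay before it. In the Dnmt1 window, 1 of 3 for that gene, TTTCGCGC lay on the opposite strand at base -219 from the start and TTTGGCGC on the same strand at base 34. The Dnmt3b window held 4 GC boxes, none of which overlapped another motif searched. A CCAAT match was in 37.4% and a GC box in 35.7% of all 32851 windows. A match is a description of the letters and not a site of binding, and windows without one say nothing of the factor.

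A probe was called detected at a detection p below 0.01, and signals are given as log2 values after background correction and quantile normalization. The lowest detected probe on an array lay between 4.88 and 4.97 on this scale. The arrays detected 13687 to 14258 of their 45281 probes, and the number of arrays limits the precision. Of the 17 probes of the 9 genes, 7 were detected in all 6 libraries, 1 each of Dnmt1, Dnmt3b, Uhrf1, Ezh2, Suz12, Eed and Bmi1. A further 8 were detected in none, so most members rest on 1 probe. As a yardstick for the spread, 2 probes of the same gene disagreed on a difference between days with an SD of 0.241 to 0.435 log2 units over 2398 genes. That spread covers probes and not repeat cultures.

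Markers of other cell types were detected. Of 18 erythroid genes on the array 16 were detected at day 0, with a summed normalized signal of 66480, and 4 to 7 detected at the activated days, with sums of 27000, 3727, 2940, 2348 and 1842 at days 2, 4, 7, 12 and 18. The brightest of these at days 7, 12 and 18 was Tfrc, the transferrin receptor and also 1 of the reference genes, at 11.07, 10.86 and 10.19. Macrophage genes were detected in 13 of 15 at day 0, 14 at day 2 and 2 at day 18, and neutrophil genes in 9 of 10 at day 0, 10 at day 2 and 0 at day 18. The neutrophil sum was 32150 at day 2 against 10360 at day 0, and the list median 10.18 against 7.01. For macrophage genes the sum was 18180 at day 2 against 12760 at day 0, while the list median was 7.18 against 8.51. Genes of CD8 and NK cells had sums of 2288, 2919, 4218, 10790 and 14460 at days 2, 4, 7, 12 and 18, against 6686 at day 0. Of these 6 genes 4 to 6 were detected. The sum was thus highest at day 18, but the median of the list was highest at day 0. That median was 9.76 at day 0, against 8.45 at day 12 and 8.79 at day 18. Of the CD8 chains, Cd8b1 had signals of 9.89 to 10.29 while Cd8a gave none above detection, and Nkg7, a cytotoxic granule gene, was brightest at day 18 (13.29). The T cell identity genes were all detected in every library (13 of 13), Cd4 among them at 5.87 to 7.64, and 9 of them were called higher at day 18 than at day 0, with a median difference of 1.33. The Th17 cytokine gene Il17a was at 10.25, 10.57 and 9.05 at days 2, 4 and 7 and was not detected at days 12 and 18, nor at day 0. In such bulk samples fewer cells of a type and less RNA per cell cannot be told apart. The part of these other cells in the differences between days, those from day 0 and from day 2 included, was not tested.

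**Figure D1:**
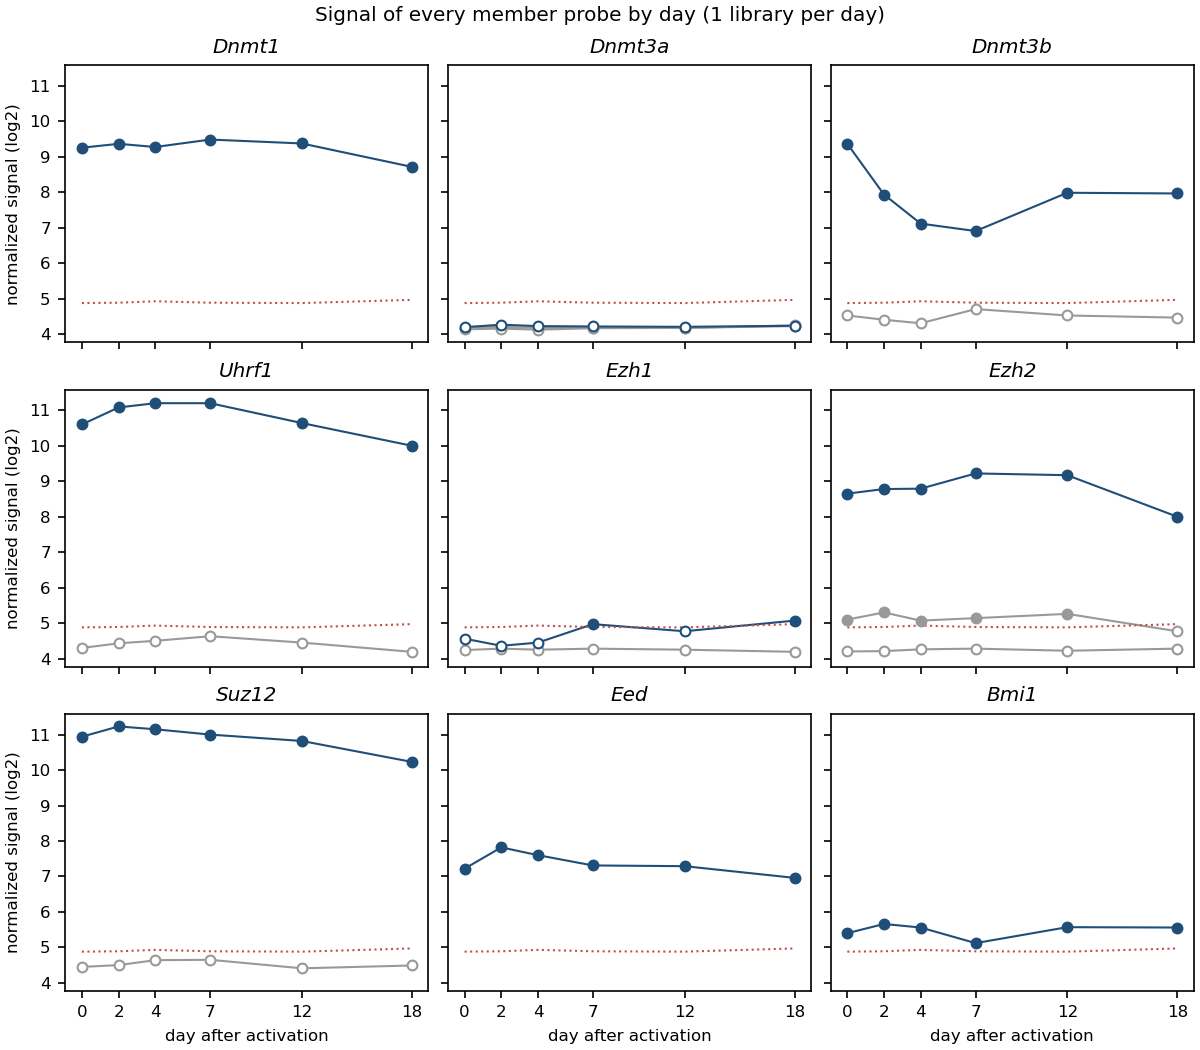
Normalized signal (log2, vertical axis) of every probe of the 9 genes against the day after activation (horizontal axis), with 1 library per day. The brightest probe of each gene is in blue and other probes in grey, filled points are detected and open points are not, and the dotted line is the lowest detected signal of each array. Dnmt3b was at 6.91 at day 7, against 9.37 at day 0, and all 3 Dnmt3a probes lay below the dotted line throughout.

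Among the maintenance genes, Dnmt1 (chr9:20907206-20959888, GRCm38.p6) was nearly level until day 12 with quantile normalization. Its probe was at 9.26, 9.37, 9.28, 9.49, 9.38 and 8.72 at days 0, 2, 4, 7, 12 and 18. The first 5 values span less than the probe yardstick, and day 18 lay below all of them. Against day 0 the difference was 0.10 at day 2, 0.23 at day 7 and -0.54 at day 18, where the yardstick was 0.397. The difference at day 18 was under 2-fold here but reached -1.05 with scaling on reference genes and -1.35 with scaling on T cell identity genes. Each is a call at 2-fold. The level course until day 12 also depended on the scaling. With T cell identity scaling Dnmt1 was at 8.96, 9.08 and 9.1 at days 4, 7 and 12, against 9.95 at day 0. With reference gene scaling it was at 9.18, 9.48 and 9.28 on these days, against 9.67.

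Uhrf1 (chr17:56303337-56323486, GRCm38.p6), the partner that brings DNMT1 to half-methylated DNA, had signals of 10.60, 11.08, 11.20, 11.20, 10.64 and 10.00 at days 0, 2, 4, 7, 12 and 18. Days 2, 4 and 7 formed a plateau whose values did not differ beyond the yardstick, days 12 and 0 lay together below it, and day 18 was lowest. Before normalization the signal was 798.5 at day 18, against 2616 at day 7 and 1764.6 at day 0. Uhrf1 was 2.30-fold lower at day 18 than at day 7 and 2.12-fold lower at day 18 than at day 2. Its excess over day 0 was 1.51-fold at day 4 and 1.52-fold at day 7, under the 2-fold rule. A dimmer Uhrf1 probe was detected in no library.

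Of the de novo enzymes only Dnmt3b was detected. Dnmt3b (chr2:153649411-153687730, GRCm38.p6) had its highest signal before activation, with 9.37, 7.94, 7.12, 6.91, 7.99 and 7.97 at days 0, 2, 4, 7, 12 and 18. Day 0 stood above every activated day, days 2, 12 and 18 did not differ beyond the yardstick, and days 4 and 7 were lowest. Before normalization its signals were 299.2, 219.3, 200.2, 327.8 and 245.8 at the activated days in order, against 843.7 at day 0. Dnmt3b was lower than at day 0 by 2.69-fold at day 2, 4.76-fold at day 4, 5.51-fold at day 7, 2.60-fold at day 12 and 2.64-fold at day 18. Relative to Dnmt1 on the same arrays, a quantity that array scaling cannot move, its log2 difference from day 0 was -1.53 at day 2, -2.70 at day 7 and -0.86 at day 18. These folds share the day 0 library, where the erythroid list also stood highest. The part of the erythroid cells in them was not tested. Dnmt3b was 2.09-fold higher at day 18 than at day 7. The other Dnmt3b probe was detected in no library, at 4.31 to 4.71.

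Dnmt3a (chr12:3801559-3914443, GRCm38.p6), the de novo enzyme linked to silencing of cytokine genes in T helper cells, gave no detected signal on any of its 3 probes. Their signals ran from 4.13 to 4.27 over the 6 libraries, and no fold is given. Neither labels nor headers say where these probes lie, so a transcript that the probes miss would look the same. Dnmt3l, a catalytically inactive relative that stimulates the de novo enzymes in germ cells, was detected at day 2 alone, at 5.62 and 5.33 on its 2 probes, against 4.26 on both at day 0. Its level at day 2 was less than 2-fold above the lowest detected signal of day 0, which makes it no call.

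The PRC2 enzyme Ezh2 (chr6:47530274-47595270, GRCm38.p6) was highest at days 7 and 12 with quantile normalization. Its brightest probe was at 8.65, 8.78, 8.79, 9.22, 9.17 and 8.0 at days 0, 2, 4, 7, 12 and 18. Days 7 and 12 did not differ beyond the yardstick, nor did days 0, 2 and 4, and day 18 lay below the others by 0.65 or more. Ezh2 was 2.33-fold lower at day 18 than at day 7, and 5.6% of the detected genes had a lower difference. Against day 0 its difference was 0.57 at day 7 and -0.65 at day 18, both under 2-fold. With T cell identity scaling Ezh2 signals were 8.81 and 8.91 at days 7 and 12, against 9.37 for day 0, which was then its highest level. With reference gene scaling it was at 9.08 at day 12 against 9.09 at day 0. A second, dim probe was at 5.10, 5.30, 5.07, 5.14, 5.26 and 4.77 at these days and was not detected at day 18. The remaining Ezh2 probe was detected in no library.

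Ezh1 (chr11:101191115-101226463, GRCm38.p6), the paralog known for its expression in resting cells, was near the limit of detection. Its brighter probe was at 4.56, 4.36, 4.45, 4.97, 4.77 and 5.07 at days 0, 2, 4, 7, 12 and 18, and only days 7 and 18 were detected. No gap between neighbours in the order of levels exceeded the yardstick. At day 18, when Ezh2 was at its lowest, the Ezh1 probe was at its highest after normalization, although its 2 detected values did not differ beyond the yardstick. Before normalization the Ezh1 signal was 97.3 at day 18, against 106.8 at day 7 and 97.8 at day 0, so day 18 was not highest there.

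The scaffold subunits of PRC2 had smaller ranges than Ezh2. Suz12 (chr11:79993106-80034123, GRCm38.p6) was at 10.94, 11.23, 11.15, 11.00, 10.82 and 10.23 at days 0, 2, 4, 7, 12 and 18. Only the gap of 0.59 between day 12 and day 18 exceeded the yardstick among neighbours in the order of levels. The difference of Suz12 at day 18 against day 2 was -0.99, or 1.99-fold, just short of the 2-fold rule. Eed (chr7:89954654-89980976, GRCm38.p6), the subunit that reads the histone mark, was at 7.22, 7.82, 7.60, 7.31, 7.29 and 6.96 at the same days. Day 2 and day 4 were highest and day 18 lowest, and the difference at day 18 against day 2 was 1.81-fold. The difference of Ezh2 minus that of Eed at day 18 against day 7 was -0.87, and minus that of Suz12 -0.45, with a yardstick of 0.310.

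Bmi1 (chr2:18677018-18686629, GRCm38.p6), the PRC1 subunit, gave a dim signal of 5.40, 5.66, 5.56, 5.12, 5.57 and 5.56 at days 0, 2, 4, 7, 12 and 18. It was detected in every library, and with quantile normalization no gap between neighbours in the order of levels exceeded the yardstick. Day 7 was lowest, and the difference at day 18 against day 7 was 0.44, beyond the yardstick of 0.310 and under 2-fold. With T cell identity scaling Bmi1 was at 5.12 and 4.65 at days 4 and 7, against 6.14 at day 0. These differences of -1.02 and -1.5 reach 2-fold, beside a median of all genes of -1.11 and -1.18 with that scaling.

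A gene was called higher or lower when its signals differed by 2-fold or more and the brighter one was detected. Against day 0, Dnmt3b alone of the members was called lower at each activated day, 1 of the 7 detected members at days 2, 4 and 12 and 1 of 8 at days 7 and 18, and none was called higher. Of all detected genes, 9.78%, 10.4%, 10.2%, 8.47% and 9.58% were called lower and 8.15%, 8.87%, 9.66%, 7.85% and 8.75% higher at days 2, 4, 7, 12 and 18, so counts of 1 and 0 among so few genes are near this background. The members' median difference from day 0 was 0.26, 0.16, 0.16, 0.07 and -0.57 at these days, beside -0.02, -0.01, -0.03, 0.02 and 0.02 for all detected genes. Ezh1, not detected at day 0, enters these medians with its measured signal. At day 18 against day 2 only Uhrf1 was called, as lower (1 of 8 members, with 8.84% of all genes lower and 9.90% higher), and the median was -0.71 beside 0.01 for all genes. At day 18 against day 7 Uhrf1 and Ezh2 were called lower (2 of 8, with 6.78% of all genes lower) and Dnmt3b higher (1 of 8, with 5.30% of all genes higher), with a median of -0.56 beside 0.06.

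**Figure D2:**
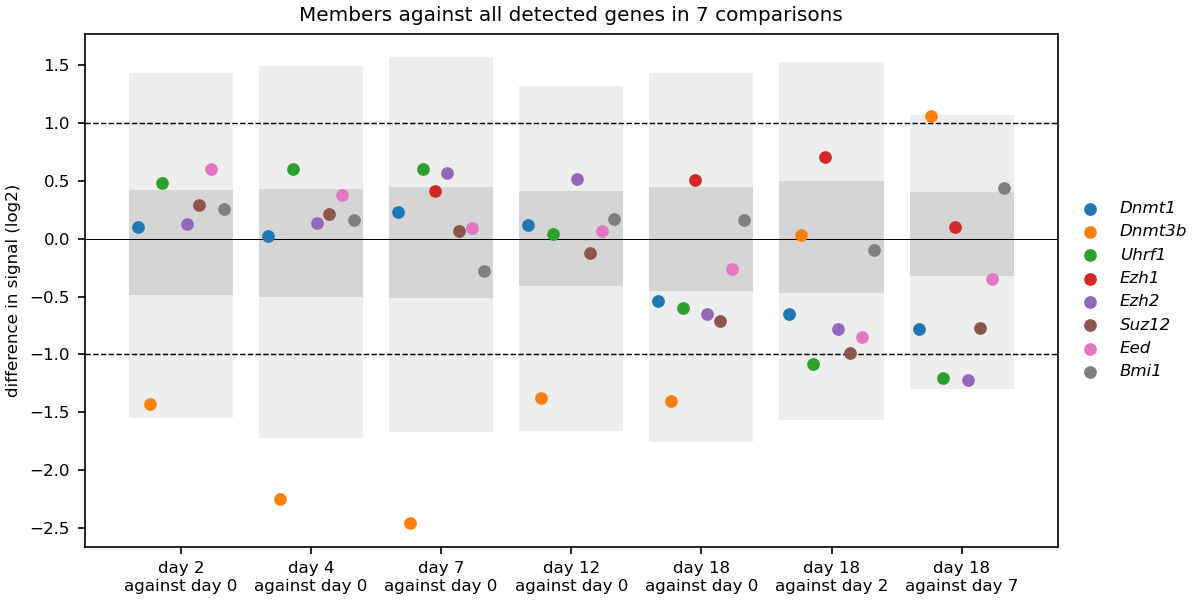
Difference in log2 signal (vertical axis) of the 8 members detected in at least 1 library, in 7 comparisons between single libraries (horizontal axis). Light bars span the 5th to 95th and dark bars the 25th to 75th percentile of all genes detected in either library, and dashed lines mark 2-fold. Dnmt3b lies between -2.46 and -1.38 against day 0, and Uhrf1 and Ezh2 lie near -1.2 at day 18 against day 7.

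The calls depend on how arrays are put on a common scale. Scaling on 13 T cell identity genes moved the median of all genes from day 0 to -0.43, -1.11, -1.18, -0.96 and -0.70 at days 2, 4, 7, 12 and 18, and scaling on 13 reference genes moved it to -0.67, -0.60, -0.50, -0.50 and -0.41. Dnmt3b stayed lower than at day 0 by 2-fold or more at each activated day under these scalings and median scaling, with differences from -3.61 to -1.36. At day 18 against day 0 the members called lower numbered 4 with reference gene scaling (Dnmt3b, Dnmt1, Ezh2 and Suz12) and 6 with T cell identity scaling (these with Uhrf1 and Eed), where all genes split into 468 higher and 2005 lower and into 330 higher and 3286 lower, against 948 and 1039 with quantile normalization. At day 18 against day 7, T cell identity scaling moved all genes by 0.48 and left Uhrf1 at -0.87 and Ezh2 at -0.92, both under 2-fold, with all genes split into 1532 higher and 388 lower against 558 and 713. The differences of Dnmt1, Uhrf1, Ezh2 and Suz12 at day 18 against day 7 were negative under each of the 3 scalings, whereas that of Eed turned to 0.04 with T cell identity scaling. The small excesses over day 0 were not stable to scaling. At day 4 Uhrf1, Ezh2, Suz12 and Eed were at -0.32, -0.90, -0.71 and -0.79 with T cell identity scaling, and at 0.19, -0.40, -0.20 and -0.28 with reference gene scaling. With T cell identity scaling Uhrf1 was also below day 0 at day 7 (-0.41), and Ezh2 at days 7 and 12 (-0.56 and -0.46).

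The cell cycle lists moved beside the members that were lowest at day 18. Of 18 detected S phase genes 10 were called lower and 0 higher at day 18 against day 7, with a median of -1.05, and of 13 mitosis genes 13 were lower, with a median of -2.50. Rrm2, a subunit of the enzyme that makes deoxynucleotides, was at 8.32 at day 18 against 10.40 at day 7, and Ccnb1, the mitotic cyclin B1, at 6.91 against 10.01. In the same comparison Uhrf1 was at -1.20, Ezh2 at -1.22, Dnmt1 at -0.78, Suz12 at -0.77 and Eed at -0.35. Uhrf1, Ezh2, Dnmt1 and Suz12 thus differed from the S phase median by -0.16, -0.17, 0.27 and 0.28, within the yardstick of 0.310. Eed differed by 0.70, beyond it. Against the mitosis median all 5 were less low, by 1.28 to 2.15 log2 units. With T cell identity scaling the S phase list had 4 genes lower and a median of -0.73, and the mitosis list still had 13.
At day 7 against day 0 the mitosis list had 8 of 13 higher with a median of 1.09, but 3 with reference gene scaling and 0 with T cell identity scaling. The S phase median was 0.06, but -0.32 with reference gene scaling and -1.01 with T cell identity scaling, and Uhrf1 and Ezh2 were at 0.60 and 0.57, but at 0.27 and 0.12 with reference gene scaling and -0.41 and -0.56 with T cell identity scaling. With quantile normalization Uhrf1 and Ezh2 lay 0.54 and 0.51 above the S phase median here, beyond the yardstick of 0.422. At day 12 against day 0 Ezh2 lay 0.84 above it, beyond the yardstick of 0.388, and Uhrf1 0.35, within that yardstick. The T cell identity genes had a median of 0.04 at day 18 against day 7, and the neutrophil list had 0 genes detected at day 18 against 8 at day 7. The part of cell division and of these other cells in the members' values was not tested.

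**Figure D3:**
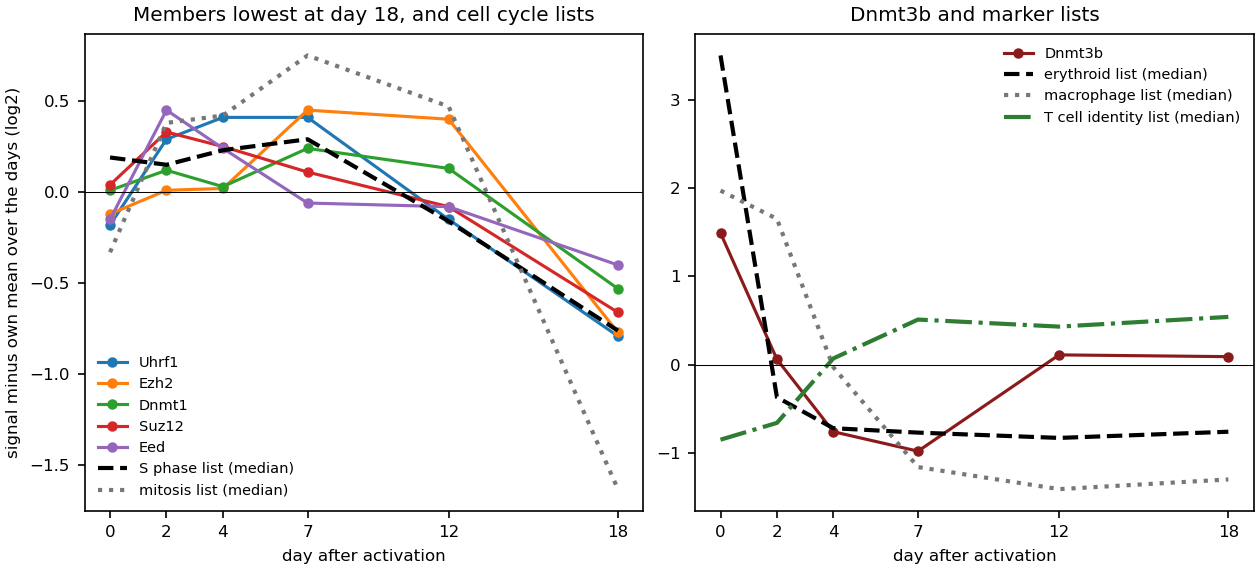
Log2 signal minus each gene's own mean over the 6 libraries (vertical axis) against the day after activation (horizontal axis). The left panel shows the 5 members lowest at day 18 with the medians of the S phase list (18 genes) and the mitosis list (13 genes), and the right panel Dnmt3b with the medians of the erythroid (16 genes), macrophage (15 genes) and T cell identity (13 genes) lists. Uhrf1 and the S phase list end at -0.79 and -0.76 at day 18, and Dnmt3b is at 0.11 at day 12 and -0.98 at day 7 while the erythroid list stays between -0.83 and -0.77 on those days.

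The genes with the most similar time course were sought for members whose range reached 1 log2 unit, among 7030 named genes detected in all 6 libraries. The measure was the root mean square distance between log2 profiles centred on their own mean, over 6 libraries. Nearest to Uhrf1 were Cenps (listed as APITD1), a histone-fold protein of centromeres and DNA repair, at 0.063, Suv39h1, a histone H3 methyltransferase of heterochromatin, at 0.077, and Chaf1a, the large subunit of chromatin assembly factor 1, at 0.088. Chaf1a was at 8.47, 8.98, 9.15, 8.92, 8.41 and 7.73 at days 0, 2, 4, 7, 12 and 18. Nearest to Ezh2 were Ckap5, a microtubule polymerase, at 0.037, Dbf4, the activator of the replication kinase CDC7, at 0.117, and Cbx5, the heterochromatin protein HP1 alpha, at 0.122. Ckap5 was at 7.71, 7.84, 7.83, 8.33, 8.19 and 7.00 at these days, with the Ezh2 plateau at days 7 and 12. Nearest to Dnmt3b were Bid, a pro-apoptotic BCL-2 family member, at 0.176, Tmem250-ps (listed as C330006A16RIK) at 0.185 and Tmem63a, a membrane ion channel gene, at 0.223. Tmem63a had a second probe detected in all 6 libraries, which was highest at day 0 (7.29) as well and lowest at day 7 (5.57), where the first was lowest at day 4 (5.55). With Pearson's correlation as the measure, 2 of the 3 genes were shared for Uhrf1 and 1 of 3 for Ezh2 and for Dnmt3b, so these neighbours are partly a matter of the measure. Suz12 had a range just under 1 and the other members less.

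Accessory subunits of PRC2 were read beside its core. Of 6 detected accessory genes, 3 were called higher than day 0 at day 2, 4 at days 4 and 7, 3 at day 12 and 2 at day 18, and none lower, with medians of 0.88, 1.07, 1.32, 1.04 and 0.05. The direction of the median held under median and reference gene scaling except at day 18, where it was -0.34 with reference gene scaling, and with T cell identity scaling it was 0.01 at day 4 and -0.63 at day 18. T cell identity scaling left 2 genes higher at day 2, 1 at day 4 and 0 at days 7, 12 and 18, and reference gene scaling 2, 2, 2, 0 and 1 at these days. Of 10840 to 10988 detected genes, T cell identity scaling called 498, 265, 275, 204 and 330 higher on these days. Reference gene scaling called 381, 433, 577, 381 and 468 of them higher. With T cell identity scaling the list medians were 0.49, 0.01, 0.17, 0.09 and -0.63 on these days. Those of all genes were -0.43, -1.11, -1.18, -0.96 and -0.70. The shares of all genes called higher with quantile normalization are given above. Epop (listed as E130012A19RIK), which links PRC2 to elongin in mouse embryonic stem cells, was at 9.72, 9.31, 8.39, 8.64 and 8.79 at days 2, 4, 7, 12 and 18, against 7.06 at day 0, a 6.34-fold difference at day 2. Aebp2, a cofactor that stabilises PRC2, was at 11.39, 11.70, 11.53, 11.17 and 10.84 at these days, against 9.75 at day 0, or 3.87-fold higher at day 4. Of its 7 probes 4 others were detected, of which 3 were higher at day 2 than at day 0 as well and 1 was at 4.67 at day 2 against 5.39 at day 0. Phf19, a Polycomb-like protein that guides PRC2 to chromatin, was 2.84-fold higher at day 7 than at day 0 and 2.63-fold lower at day 18 than at day 7, from a dim probe at 6.49 at day 7. Rbbp7, a histone-binding subunit named after its values were seen, was 2.47-fold higher at day 7 than at day 0 and 2.56-fold lower at day 18 than at day 7, and 3 probes of it were detected in all 6 libraries, at 10.05 to 10.38 at day 7. Of these 4 genes, Epop and Aebp2 were called higher than day 0 at day 18, Epop also with reference gene scaling and neither with T cell identity scaling.

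Of the other PRC1 genes few were called with quantile normalization. T cell identity scaling called 6, 15, 13, 15 and 7 of them lower than day 0 at days 2, 4, 7, 12 and 18, of 19 to 21 detected, and reference gene scaling 8, 6, 3, 4 and 4. These counts go with a shift of all genes. Of 10958, 10908, 10988, 10937 and 10840 detected genes, T cell identity scaling called 2173, 6185, 6543, 5052 and 3286 lower on these days. Reference gene scaling called 3142, 2893, 2424, 2170 and 2005 of them lower. At day 18 against day 0, 0 of 19 detected genes were higher and 1 lower, with a median of -0.16. The gene lower was Kdm2b (listed as FBXL10), which brings a form of PRC1 to unmethylated CpG islands. It was at 8.61, 9.18, 9.48, 8.86, 7.94 and 7.26 at days 0, 2, 4, 7, 12 and 18, and 2.56-fold lower at day 18 than at day 0, a call that held under the 3 scalings. A second probe detected in all 6 libraries had the same course, with 6.30 at day 18 against 7.60 at day 0. Pcgf5, a paralog of Bmi1 in other forms of PRC1, was 4.87-fold higher at day 2 than at day 0 and within 2-fold of day 0 at day 18 (difference 0.59). Its other probe, listed as 5830406C17RIK, was at 5.28 at day 2 against 5.25 at day 0 and so did not share the difference. Cbx7, a PRC1 subunit that reads the PRC2 mark, was at 7.23 at day 18 against 6.07 at day 2, a 2.23-fold difference. Of the genes that remove Polycomb marks, Kdm6b, a histone H3 demethylase listed as JMJD3, was 2.55-fold lower at day 18 than at day 2. Kdm6a, its paralog listed as UTX, was 2.03-fold lower at day 2 than at day 0, and Asxl1, a cofactor of the H2A deubiquitinase BAP1, was 2.01-fold higher at day 4 than at day 0, both at the edge of the rule.

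Of the partners of maintenance and de novo methylation, none of 6 or 7 detected genes was called against day 0 on any day with quantile normalization. T cell identity scaling called 0, 4, 3, 4 and 5 of them lower at days 2, 4, 7, 12 and 18, and reference gene scaling 0, 1, 1, 3 and 4. These too stand beside the shift of all genes given above for these scalings. Lig1, the DNA ligase of replication, was at 8.81 at day 18 against 10.13 at day 7, or 2.49-fold lower, and Pcna, the replication clamp, was at 5.19 against 6.04. The methyl-CpG readers had no call in any of the 7 comparisons, with Mbd1 at 7.99 to 9.0 and Mbd3 at 7.54 to 8.18. With T cell identity scaling 1 to 4 of 4 or 5 readers were called lower than day 0, and with reference gene scaling 2 at day 2 and 1 at day 4. The same shift of all genes applies to these counts.
The demethylation list went both ways, and its widest members were the Gadd45 stress genes, whose part in demethylation is debated. Gadd45a was 8.64-fold lower and Gadd45g 8.06-fold higher at day 18 than at day 0, and a second probe of each detected in all 6 libraries had the same direction. Gadd45b was 5.67-fold higher at day 2 than at day 0 and 7.41-fold lower at day 18 than at day 2. Among the TET enzymes, which oxidise the methyl group, Tet2 was at 5.87 to 6.65 with no call, Tet1 was detected in 1 library and Tet3 in none.

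**Figure D4:**
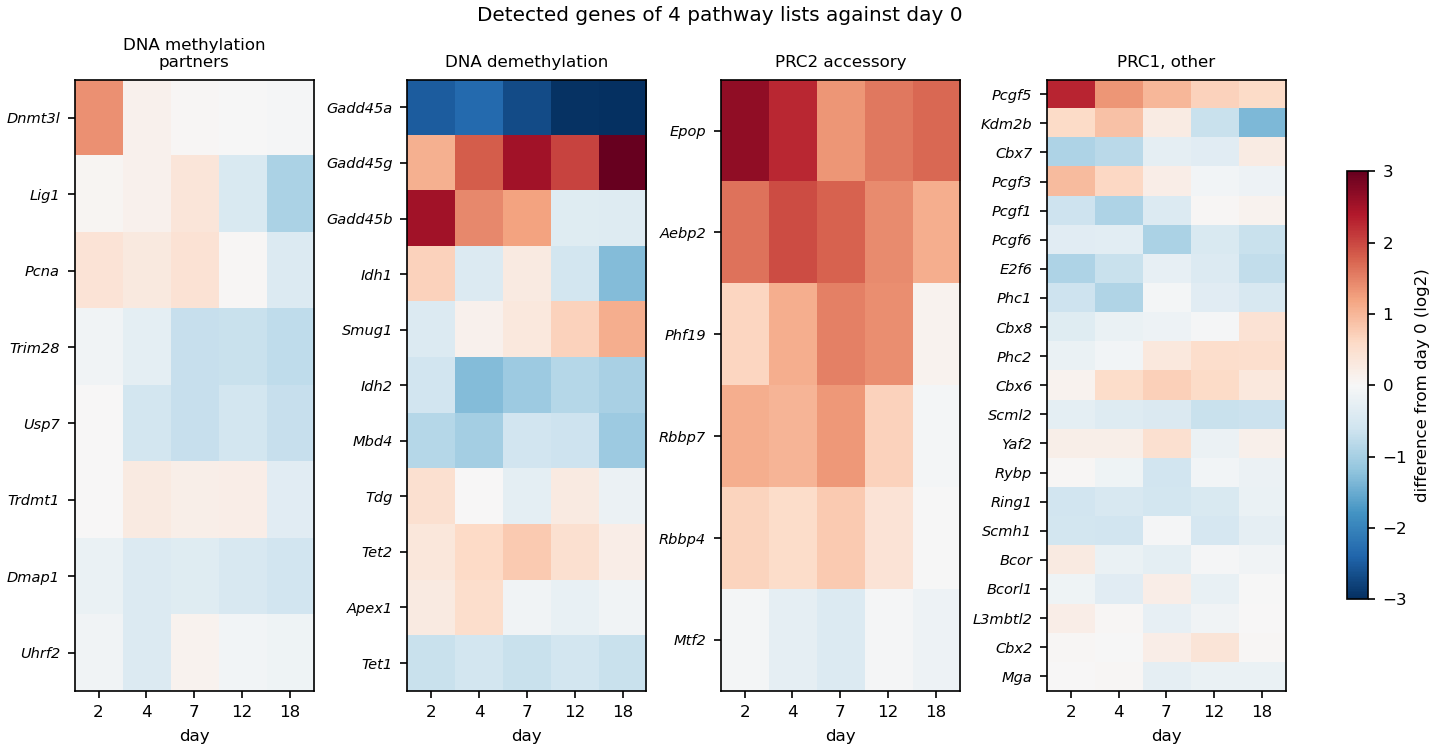
Difference in log2 signal from day 0 (colour scale, cut at 3 each way) for the detected genes of 4 lists (panels), at days 2, 4, 7, 12 and 18 (columns), each from 1 library. Signals below detection enter as measured. Epop and Aebp2 are above day 0 in all 5 columns, Gadd45a is below and Gadd45g above in all 5, and Kdm2b is 0.86 above at day 4 and 1.35 below at day 18.

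Genes known as Polycomb targets in T cells or other dividing cells were read beside the members. At day 18 against day 0, 6 of 11 detected genes were higher and 0 lower, with a median of 1.08, which was 0.51 with reference gene scaling (4 higher, 2 lower) and 0.21 with T cell identity scaling (3 higher, 4 lower). Cdkn2a, the locus of p16 and ARF, was not detected at days 0, 2, 4 and 7, at 4.30 to 4.75, and was at 8.32 at day 12 and 8.53 at day 18. It was at least 10.9-fold higher at day 12 and at least 12.6-fold higher at day 18 than at day 0, where an undetected signal was set to the lowest detected signal of that array. A second probe gave 8.31 and 8.92 at days 12 and 18. On these days Ezh2 was at 9.17 and 8.0 and Bmi1 at 5.57 and 5.56. Whether the Ezh2 or Bmi1 level had a part in the Cdkn2a signal was not tested. Cdkn1a, the inhibitor p21, was at 9.82 to 10.89 on the activated days, against 5.71 at day 0. Ifng, which encodes interferon gamma, was 7.14-fold higher at day 2 than at day 0 and at 7.65 on day 12. The members and these targets come from the same 6 libraries, and no relation between them was tested.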

How the data were processed

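Signals were deposited as intensity values per probe without normalization or background subtraction, per the file headers. Each came with a deposited detection p-value, and no header or label says how that was computed. A further deposited table holds intensity values after normalization, inferred from its shared quantiles and negative values to be background-subtracted and quantile-normalized. Each time point had 1 array.

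The neqc function of limma 3.58.1 (R 4.3.3) did the background correction (normexp from the detection p-values, offset 16), quantile normalization and log2 step. Further steps used Python 3.11.15, pandas 2.3.3, numpy 2.4.6 and matplotlib 3.10.9. Names were matched to RefSeq symbols (16223) or single-gene synonyms (5684), and 8947 were kept. The probe with the highest mean stood for its gene. With 1 library a time point no model was fitted. Where the dimmer library did not detect a gene, the higher of the probe's own signal and the lowest detected signal of that array gave the fold as a lower bound. The calling rule was tested on simulated data whose noise was smaller than the probe yardstick. The test thus gives no error rate for calls near 2-fold in these data.

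The members and gene lists were chosen with earlier results of these data known. Named were all members, the 3 genes of widest range in each list, and the 3 nearest in time course to members with a range of 1 log2 unit and detection in 5 arrays. The alternatives were median scaling, scaling on reference or T cell identity genes, an offset of 50, no background correction, a detection p below 0.05, the deposited normalized values, the mean of detected probes, restriction to genes detected on every array, and Pearson's correlation for similar time courses. Changes relative to Dnmt1, other members or a list median, the list counts under other scalings and the Th17 marker check were added after the values were seen. A planned comparison of protein sequences was not made, since no protein table was used here. Some genes that the naming rule selects are not reported here.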

Additional observations from a re-analysis of the deposited data

How the results depend on the processing

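Counts of called members at days 2 and 12 against day 0 were the same under all 9 alternatives, and so were all 14 counts with the deposited values, a detection p below 0.05 and genes detected in all 6 libraries. For lower members, T cell identity scaling gave 2, 3 and 6 at days 4, 7 and 18 against day 0, in place of 1 each. Of all detected genes that scaling called 6185 of 10908, 6543 of 10988 and 3286 of 10840 lower on these days. At days 4 and 7 the added member calls are thus no result about the members. At day 18, where 6 of 8 members were called, their median was -1.31 beside -0.70 for all genes, from 1 library a day. For day 18 T cell identity scaling gave 5 when set against day 2, in place of 1, and 0 when set against day 7, in place of 2. It called 1610 of 10744 and 388 of 10523 detected genes lower in these 2 comparisons. Reference gene scaling gave 4 for day 18 against day 0 and, set against day 2, 0. Median scaling gave 2 at day 18 against day 2, and the mean of detected probes 1 at day 18 against day 7. Dnmt3b was no longer called higher at day 18 against day 7 (0 members) with no background correction, at 0.75, or with an offset of 50, both of which shrink differences of dim probes. Of 53 differences of single members, T cell identity scaling moved 42 and reference gene scaling 27 by more than the probe yardstick, and no called one changed sign. The cause of the scaling shifts was not tested. With no background correction 475 genes in place of 893 were higher and 535 in place of 1072 lower at day 2 against day 0. No paired analysis was possible because each time point has 1 library. Signals near the detection limit (Ezh1, Bmi1, the second Ezh2 probe) compress differences.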
